A study of Mus musculus with 31 samples.

Results

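The genes described are 10 genes of antigen presentation by major histocompatibility complex (MHC) molecules: H2-Ea, H2-Eb1, H2-DMb1, H2-Aa, H2-Ab1 and Cd74 of class II, and H2-K1, H2-D1, B2m and Tap1 of class I. They are a list of named genes, drawn up with earlier results of these data known, and were taken where the array annotation gave a probe a single gene symbol. All 10 had such a probe, 10 of 15096 named genes on the array. Whole-brain RNA of 31 BXD/TyJ strains, all males aged 8 weeks, was pooled from 3 animals per strain, labelled with Alexa Fluor 647 and hybridised on 2-colour glass arrays against whole-brain RNA of C57BL/6J labelled with Alexa Fluor 555. There was 1 array per strain, so a strain and its array cannot be told apart, and p-values measure only the spread between these 31 arrays. There was no dye swap, so a fixed dye effect on a probe cannot be told apart from a difference from C57BL/6J. BXD mice descend from the parental strains DBA/2J and C57BL/6J and were inbred, so that at nearly every locus a strain carries 2 copies of the allele of a single parent. The values are the deposited log ratios, taken here as log2 of strain over C57BL/6J. The log base, the centring and the direction are not stated, so every sign below rests on that reading.

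Class II molecules are pairs of an alpha and a beta chain that present peptides taken up from outside the cell to CD4+ T cells. Class I molecules pair a heavy chain with beta-2-microglobulin and present peptides made in the cell to CD8+ T cells. In the brain both classes are low in the healthy adult, and class II is carried mainly by macrophages and dendritic cells at the borders and by activated microglia. Apart from Cd74 and B2m, the genes lie together on chromosome 17. The parents carry different versions of this block, haplotype b in C57BL/6J and haplotype d in DBA/2J, and H2-Ea, the gene of the E alpha chain, is not transcribed from haplotype b. The question for these genes was whether H2-Ea divided the strains into 2 levels and whether the linked genes divided them alike. Strain genotypes in the H2 region were not used here. In whole tissue, fewer cells of a type and less RNA per cell cannot be told apart, and ratios against the same tissue do not show how much of a transcript was present, so brain markers could not be checked by level.

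The start regions of 5 of the genes are shown because their values formed the 3 pairs that were correlated beyond the threshold in the fit without a term for array sets, described below. They are the 150 bases before the annotated transcript start, in the direction of transcription, from RefSeq promoter windows of build GRCm38.p6. Capitals mark matches on either strand to the Y box (ATTGG, bound by NF-Y), the X1 box (CTAGCAAC, bound by RFX) and the X2 box (TGACG, bound by CREB family factors), the short motifs that class I and class II promoters share. They lie at chr17:34305717-34305866 (plus strand) for H2-Eb1, chr17:34153041-34153190 (plus strand) for H2-DMb1, chr17:34287824-34287973 (minus strand) for H2-Aa, chr17:34000334-34000483 (minus strand) for H2-K1 and chr17:35262944-35263093 (plus strand) for H2-D1.
H2-Eb1: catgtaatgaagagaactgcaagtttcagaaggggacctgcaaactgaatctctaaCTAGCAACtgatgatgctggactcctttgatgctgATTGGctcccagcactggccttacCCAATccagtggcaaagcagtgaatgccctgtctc
H2-DMb1: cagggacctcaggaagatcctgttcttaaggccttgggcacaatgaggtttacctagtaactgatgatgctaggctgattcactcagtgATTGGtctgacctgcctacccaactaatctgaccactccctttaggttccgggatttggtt
H2-Aa: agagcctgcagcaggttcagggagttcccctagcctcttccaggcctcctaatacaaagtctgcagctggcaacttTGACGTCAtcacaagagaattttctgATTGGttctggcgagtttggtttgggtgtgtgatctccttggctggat
H2-K1: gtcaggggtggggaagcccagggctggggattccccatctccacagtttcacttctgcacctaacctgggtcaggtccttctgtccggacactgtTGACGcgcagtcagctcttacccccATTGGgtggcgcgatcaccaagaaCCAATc
H2-D1: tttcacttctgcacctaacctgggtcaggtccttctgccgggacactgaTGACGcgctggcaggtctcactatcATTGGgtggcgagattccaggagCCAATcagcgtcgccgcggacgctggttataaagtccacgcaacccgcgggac

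Each of the 5 sequences held a Y box, which began 59 bases before the start in H2-Eb1, 61 in H2-DMb1, 48 in H2-Aa, 30 in H2-K1 and 76 in H2-D1. H2-Eb1, H2-K1 and H2-D1 held another Y box on the opposite strand nearer the start. X2 matches were found in H2-Aa, H2-K1 and H2-D1, and in H2-Aa the motif read on both strands as overlapping matches. The X1 letters were found in H2-Eb1 alone among the 7 of the 10 genes with a window in the table. Over 32851 promoter windows of 300 bases, 37.4% held a Y box, 1.32% an X1 box and 20.8% an X2 box, so single Y and X2 matches are common letters. A match is a description of the sequence and shows no binding. RefSeq lists a second start for H2-K1 a few bases upstream, and the downstream one is printed. The windows of B2m and Tap1 are not printed.

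The deposited table held 23040 spots and no missing values, and all 31 columns had the same sorted values, with a median of 0.01, an SD of 0.60 and a range from −4.07 to 4.95. Precision is limited by the number of arrays, and probe brightness was not used here. On a principal component analysis of all features, 7 arrays stood apart on the first component, which held 28.7% of the variance, and 8 others on the second, which held 11.9%. The 7 arrays held BXD28, BXD6, BXD38, BXD23, BXD20, BXD8 and BXD36, and the 8 held BXD42, BXD15, BXD40, BXD27, BXD39, BXD22, BXD34 and BXD33. The labels name no batch, so these 3 sets, with the 16 other arrays, are sets seen in the data. The sets held a median of 33.9% of the variance of a named gene. Probes at the eighth place of each run of 8 spots gave lower values as a group, with a median mean of −0.45 against 0.08 at the other places, although 14.8% of them had a mean above 0. None of the 11 probes of the 10 genes lay there.

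H2-Ea, H2-Eb1 and H2-DMb1 had log ratios mostly below 0. H2-Ea ranged from −0.62 in BXD32 over a median of −0.37 to 0.20 in BXD6, and BXD28 at 0.07 was the only other strain above 0. Its mean log2 ratio was −0.33 ± 0.18 (SD, n = 31; adjusted p = 1.44e-10, limma). H2-Ea was below 0 in 29 of 31 strains, and both exceptions were among the 7 arrays apart on the first component. Since haplotype b, which C57BL/6J carries, gives no H2-Ea transcript, these values cannot be read as less H2-Ea transcript than in the reference. With the ratio turned the other way the mean would be 0.33, with 29 of 31 strains above 0. Neither the direction nor what this probe measured was settled by the data used here, so no level of H2-Ea is drawn from its sign.

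H2-Eb1, the gene of the E beta chain that pairs with E alpha, ranged from −0.72 in BXD18 over a median of −0.42 to 0.23 in BXD28, with the next strain, BXD36, at −0.12. Its mean was −0.38 ± 0.20 (SD, n = 31; adjusted p = 5.95e-11, limma). A single strain of 31 lay above 0. H2-DMb1 encodes a beta chain of H2-DM, which helps load peptides onto class II molecules. It ranged from −0.85 in BXD27 over a median of −0.52 to 0.48 in BXD32, which stood 0.48 above the next strain, BXD36, at −0.00. The mean of H2-DMb1 was −0.48 ± 0.27 (SD, n = 31; adjusted p = 9.38e-11, limma), and 30 of 31 strains were below 0.

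The A chains, the other classical class II pair, had means above 0, with H2-Aa near 0. H2-Ab1, the A beta chain, ranged from −0.10 in BXD15 over a median of 0.27 to 0.67 in BXD36, with a mean of 0.24 ± 0.16 (SD, n = 31; adjusted p = 3.01e-08, limma). It was above 0 in 28 of 31 strains. H2-Aa, the A alpha chain, ranged from −0.29 in BXD32 over a median of 0.01 to 0.44 in BXD39, with a mean of 0.08 ± 0.17 (SD, n = 31; adjusted p = 0.0282, limma). H2-Aa was above 0 in 18 strains and below 0 in 13. Its call did not hold in every setting: without the 15 arrays apart on the first 2 components the mean of H2-Aa was −0.02 (adjusted p = 0.480, limma). It also missed the threshold without the 7 arrays (adjusted p = 0.0638, limma) and with each array centred on its median (adjusted p = 0.0646, limma). The gene had 2 probes, with means of 0.09 and 0.07 and SDs of 0.25 and 0.14, which correlated over strains with r = 0.449 (permutation p = 0.0121) and rho = 0.50 (permutation p = 0.00487), and with r = 0.344 after the means of the array sets were subtracted. The 2 probes of a single gene thus ranked the strains alike only in part.

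Cd74, the invariant chain that holds new class II molecules until they reach the loading compartment, lay near the reference. It ranged from −0.32 in BXD6 over a median of −0.04 to 0.29 in BXD18, and its mean of −0.04 ± 0.12 (SD, n = 31) did not pass the test (adjusted p = 0.134, limma). Its SD was at percentile 0.861 of named genes, so few genes on the array varied less over strains.

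The class I heavy chains had log ratios mostly above 0. H2-D1 ranged from −0.35 in BXD36 over a median of 0.43 to 1.24 in BXD18, with 27 of 31 strains above 0. Its mean was 0.48 ± 0.37 (SD, n = 31; adjusted p = 6.15e-08, limma). H2-D1 had both the widest range and the largest SD of the 10 genes, at the 78.3rd percentile of named genes. H2-K1 ranged from −0.15 in BXD12 over a median of 0.09 to 0.73 in BXD39, with 26 strains above 0 and a mean of 0.16 ± 0.19 (SD, n = 31; adjusted p = 0.000179, limma). Without the 15 arrays apart on the first 2 components, the mean of H2-K1 was 0.03 (adjusted p = 0.237, limma). Class I heavy chain genes are alike in sequence, and whether these probes also bound related transcripts was not tested.

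B2m, the light chain that class I molecules share, lay mostly below 0. It ranged from −0.68 in BXD29 over a median of −0.29 to 0.36 in BXD11, with 24 strains below 0 and a mean of −0.25 ± 0.26 (SD, n = 31; adjusted p = 1.89e-05, limma). Tap1, a subunit of the transporter that brings peptides to class I molecules, ranged from −0.57 in BXD18 over a median of 0.10 to 0.65 in BXD36. Its mean of 0.11 ± 0.27 (SD, n = 31) was close to the threshold (adjusted p = 0.0429, limma), and it missed the threshold once each array was centred on its median (adjusted p = 0.0736).

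In count, 5 of the 10 genes had a positive mean beyond the threshold, a Benjamini-Hochberg adjusted p under 0.05 over all features, and 4 had a negative one. Over all 21262 features, 42.1% passed with a positive mean and 33.9% with a negative one, 76.1% in all. The median size of the mean was 0.24 for the 10 genes and 0.22 for all named genes. Passing this test was therefore common on these arrays. Without the 15 arrays apart on the first 2 components, and also with each array centred on its median, 3 of the 10 genes were positive beyond the threshold. The test sets 31 strains against a single reference RNA and leaves out the spread of the reference.

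**Figure D1:**
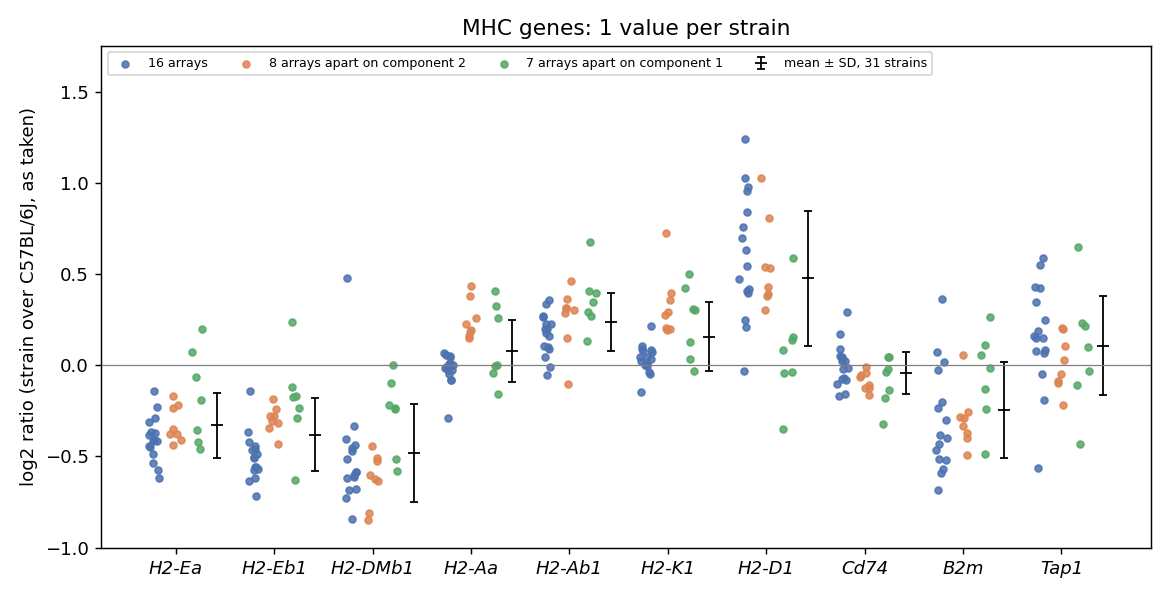
Log2 ratio (y axis, strain over C57BL/6J as taken) of each of the 10 MHC genes (x axis), 1 point per strain, coloured by the 16, 8 and 7 arrays of the sets seen in the data, with the mean ± SD over 31 strains as a bar at the right of each gene. H2-Ea, H2-Eb1 and H2-DMb1 lie mostly below 0, H2-Ab1 and H2-D1 mostly above, and the 8 arrays of H2-Aa all lie above 0.

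The sets of arrays differed in several of the 10 genes. H2-Aa had a mean of −0.02 ± 0.08 (SD) over the 16 arrays, 0.25 ± 0.11 over the 8 and 0.11 ± 0.22 over the 7, and the sets held 46.2% of its variance. H2-K1 showed the same order, with 0.03 ± 0.08, 0.33 ± 0.18 and 0.24 ± 0.20 and 48.7% of the variance. H2-D1 had 0.61 ± 0.34, 0.55 ± 0.25 and 0.08 ± 0.28, with 35.4% of the variance. The 8 arrays were thus high for H2-Aa and H2-K1, and the 7 arrays low for H2-D1.

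H2-Eb1 was lowest over the 16 arrays, at −0.50 ± 0.13, against −0.30 ± 0.07 and −0.20 ± 0.26, and the sets held 43.4% of its variance. H2-Ea had means of −0.40 ± 0.12, −0.32 ± 0.10 and −0.17 ± 0.26, with 27.0% of the variance between sets. H2-Ab1, H2-DMb1, Cd74, B2m and Tap1 had between 6.02% and 24.7% of their variance between sets. The part of whatever set these arrays apart in the differences between strains was not tested.

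H2-Ea did not divide the strains into 2 levels more sharply than an ordinary gene on the array. The division was measured as the largest share of a gene's variance that lies between 2 parts of its sorted strains, with at least 5 strains on each side. For H2-Ea it was 66.3%, with 22 strains in the lower part and 9 in the upper, and the median of named genes was 66.2%. This put H2-Ea at the 50.9th percentile, and at the 63.3rd after the set means were subtracted (share of 63.3%). The largest gap between neighbouring strains of H2-Ea was 0.14, between BXD38 and BXD28, with only BXD28 and BXD6 above it. Its whole range was 0.82, against a median range of 1.16 for named genes, and its SD was at the 13.5th percentile. The strains of H2-Ea formed a graded series with 2 high strains at its end. Without strain genotypes, these values were not shown to follow the haplotype. The comparisons with H2-Ea below are thus with the values of this probe. They cannot tell whether the linked genes divide the strains by haplotype.

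The other genes gave shares from 57% for Cd74 to 74.6% for B2m. B2m, which is not in the H2 block, had the largest share, at the 85.4th percentile, with 21 strains low and 10 high. H2-Aa followed at 73.3%, the 81.4th percentile, and fell to the 28.7th percentile after the set means were subtracted. H2-Eb1 gave 66.5% (51.8th percentile), and 43.6% (4.13th percentile) after subtraction. H2-K1 gave 68.3% (60.5th percentile) and then 54.2% (22.8th percentile). For H2-Aa the upper part held all 8 arrays of the second set, 3 of the 7 and none of the 16. For H2-K1 it held 5 of the 8, 4 of the 7 and none of the 16. The parts of H2-Aa and H2-K1 thus followed the sets of arrays. H2-D1 went the other way, from 64.3% (41.3rd percentile) to 66.8% (80.0th percentile) after subtraction.

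**Figure D2:**
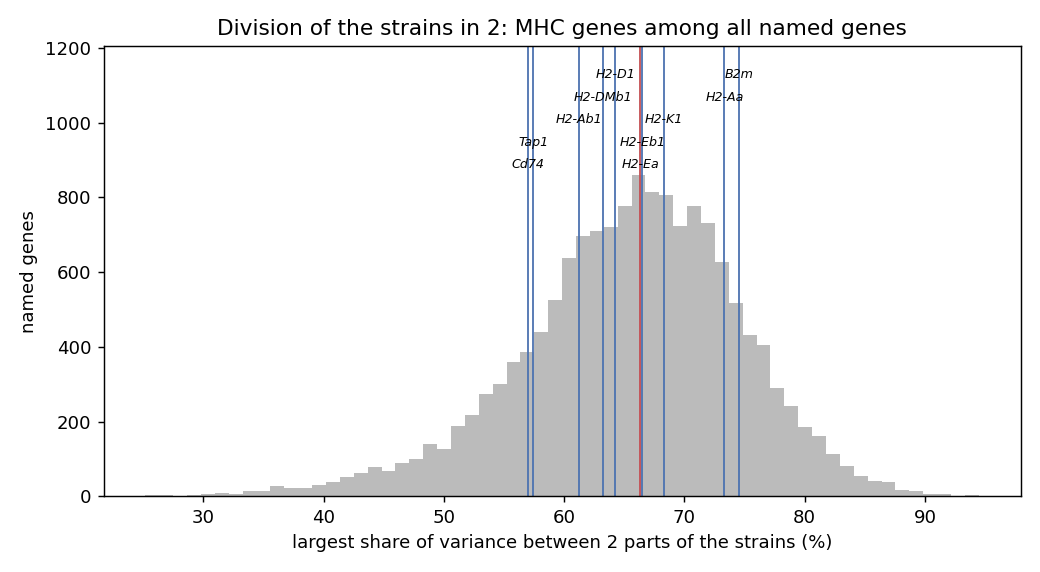
Histogram of the largest share of variance between 2 parts of the strains (x axis, percent) over 15096 named genes (y axis, number of genes), with a line for each of the 10 MHC genes. H2-Ea (red) and H2-Eb1 lie together at the middle of the histogram, at 66.3% and 66.5%, and B2m and H2-Aa lie farthest to the right.

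The linked genes did not put the same strains in their upper parts. The upper part of H2-Ea held BXD6, BXD13, BXD15, BXD16, BXD23, BXD27, BXD28, BXD38 and BXD42. H2-Eb1, its neighbour, shared 7 of these 9 strains, which made up 77.8% of the H2-Ea strains and 46.7% of the 15 upper strains of H2-Eb1. These 7 were the 3 upper H2-Ea strains among the 8 arrays and the 4 among the 7, and neither of the 2 among the 16 was shared. The upper part of H2-Eb1 itself held 7 of the 8 arrays, 6 of the 7 and 2 of the 16, so its overlap with H2-Ea followed the array sets too. H2-K1 shared 5, which was 55.6% of each list of 9. H2-Aa shared 5 of its 11 upper strains, H2-Ab1 5 of 18, H2-DMb1 3 of 7, H2-D1 4 of 14 and Tap1 5 of 20. The genes outside the block shared 4 of 10 (B2m) and 1 of 14 (Cd74). No gene had the upper strains of H2-Ea as its own. The overlap that parts of these sizes have among all genes was not computed, so the counts only describe the lists. Shared upper strains also cannot show a division that runs the opposite way.

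**Figure D3:**
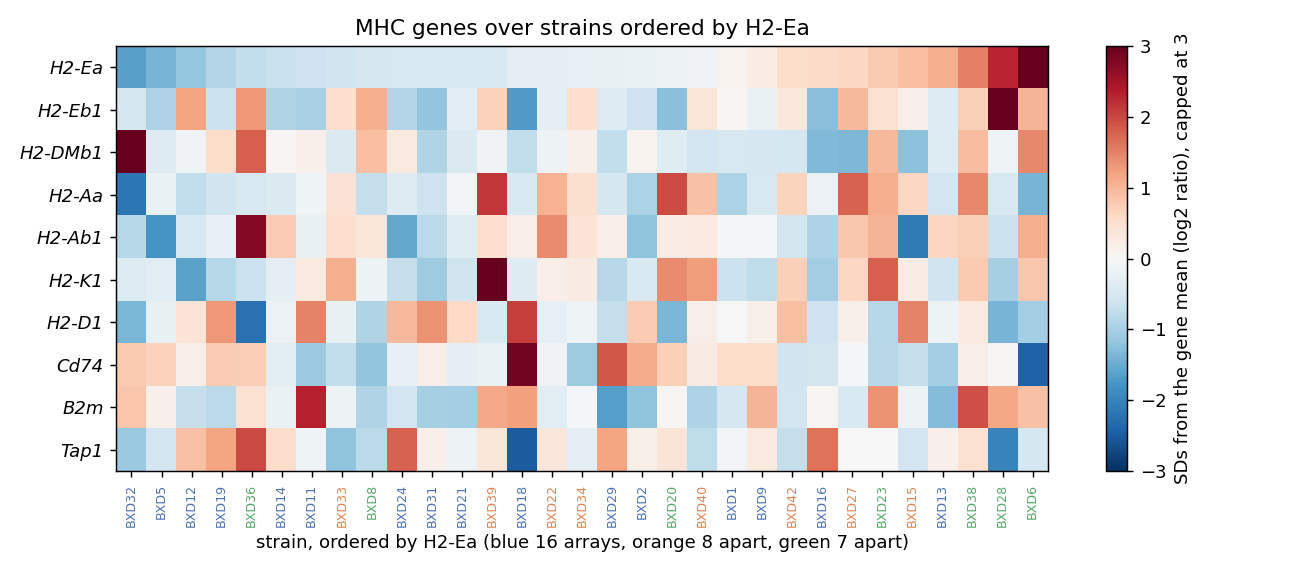
Each of the 10 MHC genes (rows) over the 31 strains (columns, ordered by H2-Ea, names coloured by array set), as the number of SDs above (red) or below (blue) the mean log2 ratio of the gene, with the colour capped at 3. No other row shows the left-to-right order of H2-Ea.

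Each of the other 9 genes was then fitted on H2-Ea over the 31 strains with limma, with the array set as a term, in 1 fit over all 21261 other features. In this fit 1 feature passed (0.0047%), and 0 of the 9 genes did, with adjusted p-values from 0.468 to 0.940. At an unadjusted p under 0.05 there were 2049 features (9.64%) and 1 of the 9 genes, H2-DMb1. The slope of H2-Eb1 was 0.20 log2 units per log2 unit of H2-Ea (95% interval −0.20 to 0.60, adjusted p = 0.780). Its error thus allowed no relation, a weak inverse one or a positive one with a slope of up to 0.60. H2-DMb1 had a slope of −0.62 (−1.18 to −0.06, adjusted p = 0.468). Its interval lay below 0, but it did not pass adjustment over all features.

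For the A chains the slopes on H2-Ea were −0.06 (−0.41 to 0.29) for H2-Aa and −0.13 (−0.50 to 0.25) for H2-Ab1. For the class I genes they were −0.07 (−0.45 to 0.30) for H2-K1, 0.44 (−0.28 to 1.17) for H2-D1, 0.12 (−0.50 to 0.73) for B2m and −0.27 (−0.93 to 0.38) for Tap1, and Cd74 had −0.22 (−0.52 to 0.08). All of these 7 intervals contain 0. That of H2-D1 reaches beyond a slope of 1, which would be a change as large as that of H2-Ea. Without the term for array sets 886 features passed (4.17%) and again 0 of the 9 genes, with adjusted p-values from 0.10 to 0.698.

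The pooled correlation of H2-Ea with H2-Eb1 was lower both without 2 strains and within the array sets. Over 31 strains it was r = 0.455 (permutation p = 0.0112) and rho = 0.262 (permutation p = 0.156). Without BXD6 and BXD28, the strains farthest from the median of H2-Ea, r was 0.170, and after the set means were subtracted over all 31 strains it was 0.202. Within the sets it was −0.106 over the 16 arrays (permutation p = 0.694), 0.0544 over the 8 (exact permutation p = 0.898) and 0.413 over the 7 (exact permutation p = 0.375). H2-DMb1 had a pooled r of −0.123 with H2-Ea (permutation p = 0.497; rho = −0.274, permutation p = 0.135). Its r within the sets was −0.595 (permutation p = 0.0160), −0.797 (exact permutation p = 0.0199) and −0.0687 (exact permutation p = 0.870), so the inverse relation was seen in 2 of the 3 sets. Among the 16 arrays, BXD32 had both the lowest H2-Ea (−0.62) and the highest H2-DMb1 (0.48), and r without BXD32 was not computed. H2-D1 had a pooled r of −0.143 with H2-Ea, and within the sets −0.0006 over the 16 arrays (permutation p = 0.998), 0.874 over the 8 (exact permutation p = 0.0024) and 0.364 over the 7 (exact permutation p = 0.446). Cd74 had a pooled r of −0.417 with H2-Ea (permutation p = 0.0211) and a rho of −0.267 (permutation p = 0.144). Without BXD6 and BXD28 its r was −0.260, and within the sets −0.2115, −0.0184 and −0.515 over the 16, 8 and 7 arrays. H2-Aa had a pooled r of 0.1405 with H2-Ea, 0.482 without BXD6 and BXD28, and −0.0694 after the set means were subtracted. These come from 9 relations with H2-Ea in a family of 45, and 5 of the 9 pooled coefficients were above 0.

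Among all 45 pairs of the 10 genes, 24 had a pooled r above 0 and the median was 0.02. After the set means were subtracted, the coefficients ran from −0.499 to 0.496 with a median of −0.0071, and 13 pairs had the same sign in all 3 sets. With the array set as a term, 0 pairs passed over all features. Among the 10 genes as predictors in that fit, the number of features that passed was 0 for H2-Eb1, Cd74 and B2m, 1 for H2-Ab1 (0.0047%), 14 for H2-K1 (0.0658%), 21 for H2-Aa (0.0988%), 27 for H2-D1 (0.127%), 69 for Tap1 (0.325%) and 352 for H2-DMb1 (1.66%). At an unadjusted p under 0.05 those with 0 calls had 1870, 920 and 1868 features. Without the term 3 pairs passed, in fits in which 0% of features passed on Cd74, 0.0141% on B2m, 0.0235% on Tap1, 0.263% on H2-Ab1 and 4.23% on H2-DMb1, and more on the predictors given below.

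The first of these was H2-Aa with H2-K1, an A alpha chain and a class I heavy chain. Their pooled r was 0.728 (permutation p = 1e-05, the smallest that 100000 resamples can give) and rho was 0.652 (permutation p = 0.0001). Without the term for array sets the adjusted p was 0.00152 in limma with H2-Aa as predictor, where 15.4% of features passed, and 0.00184 with H2-K1, where 19.9% did. With the term the adjusted p was 0.240. Within sets r was 0.0617 over the 16 arrays (permutation p = 0.790), 0.643 over the 8 (exact permutation p = 0.0809) and 0.621 over the 7 (exact permutation p = 0.135). Without BXD20 and BXD39 the pooled r was 0.615. The relation was thus not seen in the largest set, and the part of the array sets in it was not tested further. The probes of H2-Aa differed here too, with r = 0.753 (permutation p = 1e-05) and r = 0.409 (permutation p = 0.0255) with H2-K1.

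The second pair was H2-Eb1 with H2-D1, which ran in opposite directions over strains (r = −0.452, permutation p = 0.0105; rho = −0.361, permutation p = 0.0455). Its adjusted p without the term was 0.0479 with H2-Eb1 as predictor, where 18% of features passed, and 0.0548 with H2-D1, and 0.820 with the term. Without the 2 strains farthest from the median of H2-Eb1 r was −0.287, and after the set means were subtracted it was −0.209. Within the sets r was −0.294, −0.197 and −0.139 over the 16, 8 and 7 arrays. The third pair was H2-DMb1 with H2-D1, also inverse (r = −0.461, permutation p = 0.00834; rho = −0.336, permutation p = 0.0646), with an adjusted p of 0.0418 with H2-D1 as predictor, where 22.8% of features passed, 0.0874 with H2-DMb1, and 0.524 with the term. Without BXD32 and BXD36 r was −0.251, and after the set means were subtracted it was −0.307. Within the sets r was −0.313, −0.641 and −0.0701. Both pairs thus kept a negative sign in each set.

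**Figure D4:**
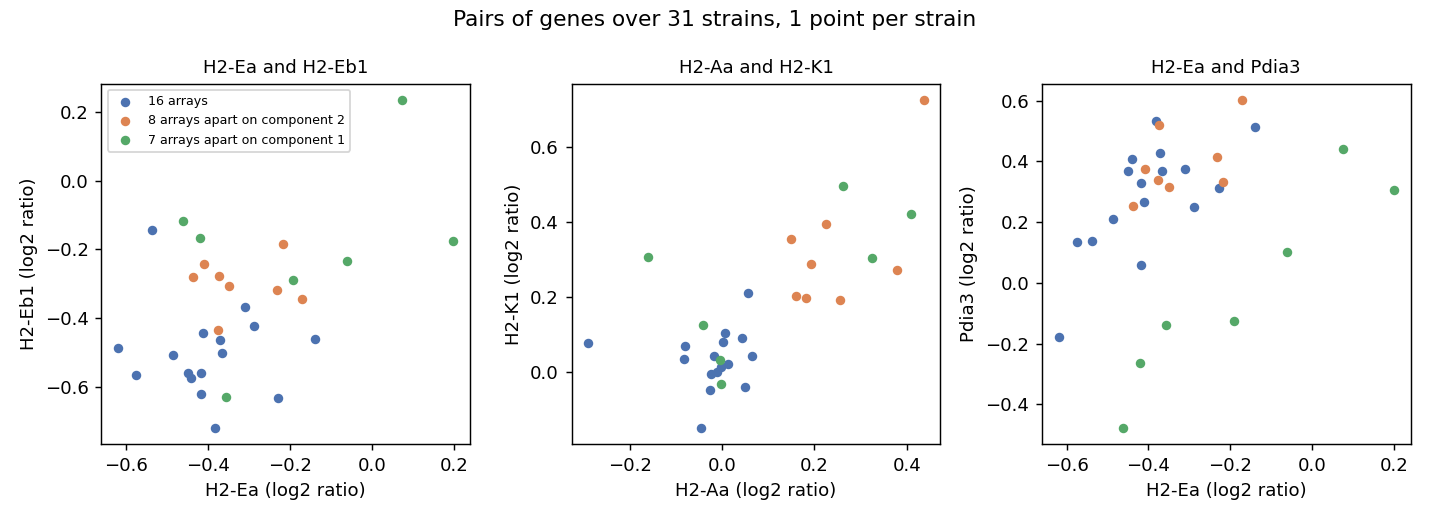
Log2 ratio of H2-Eb1 against H2-Ea, H2-K1 against H2-Aa and Pdia3 against H2-Ea (left to right), 1 point per strain, coloured by array set. In the middle panel the 16 arrays sit together near 0 (r = 0.0617), and in the right panel the 7 arrays form a line of their own below the others (r = 0.940).

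After the set means were subtracted, the genes nearest to H2-Ea were correlated with the values of its probe about as much as genes elsewhere. This does not test whether they follow the haplotype. Of the genes within 10 places of H2-Ea in the RefSeq gene order, 9 had a probe. Their median absolute correlation with H2-Ea, set means subtracted, was 0.148, against 0.157 over 15095 named genes, and 0 of 9 passed at an unadjusted p under 0.05, where 9.74% of all genes did. Besides H2-Eb1, H2-Aa, H2-Ab1 and Tap1 these were H2-Eb2 (mean −0.03, not past the threshold), H2-Ob (mean 0.24), the transporter gene Tap2 (0.11) and the immunoproteasome genes Psmb8 (0.23) and Psmb9 (−0.66). The Psmb9 probe lay at the eighth place of its run, and the 2 probes of Psmb8 gave 0.39 and 0.07. In the mean test 6 of the 9 were positive and 2 negative beyond the threshold, where 42.1% and 33.9% of all features were.

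Within 25 places, 32 genes had a probe and 5 had an unadjusted p under 0.05, as did 9.74% of all named genes, with 0 past the threshold after adjustment. They lay 11 to 16 places from H2-Ea on the DM side of the block: H2-Pa (r = 0.539, set means subtracted), Brd2 (0.498), H2-DMa (0.582), H2-DMb2 (0.414) and H2-DMb1 (−0.393). H2-Oa, which lies between H2-Pa and Brd2, was not among them (0.119, unadjusted p = 0.543). The 4 genes other than H2-DMb1 are named because they are the rest of that count, and with H2-Oa were chosen after their values were seen. The adjusted p-values of the 5 ran from 0.294 for Brd2 to 0.468 for H2-DMb1 (limma). The alpha chain H2-DMa and the beta chain H2-DMb1 thus had opposite signs, while the other beta chain gene, H2-DMb2, had the sign of H2-DMa.

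**Figure D5:**
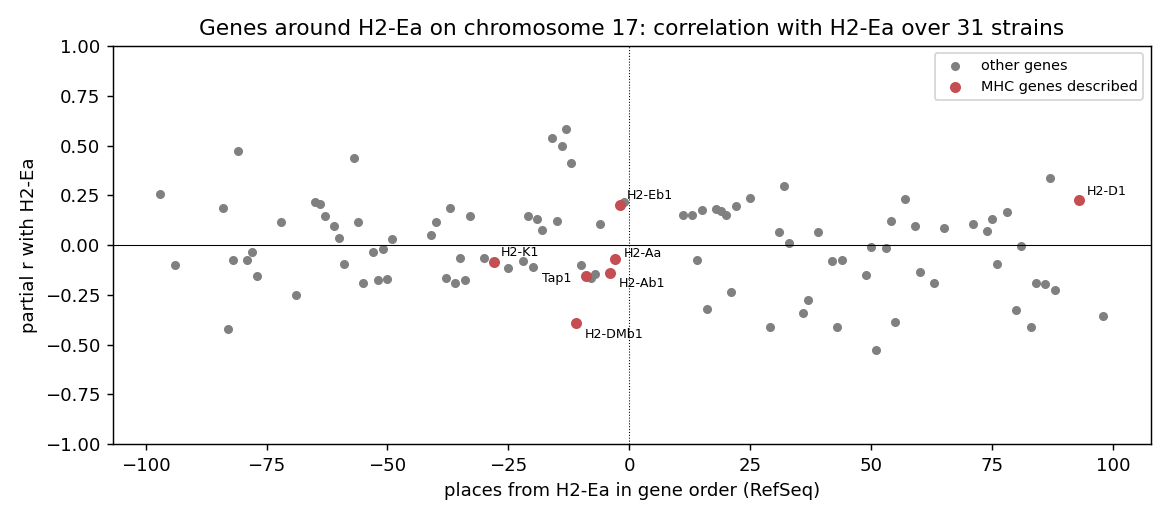
Correlation with H2-Ea over 31 strains after subtraction of array set means (y axis, partial r) for 102 genes of chromosome 17 with a probe, by their number of places from H2-Ea in the RefSeq gene order (x axis). The MHC genes described (red) that lie within 10 places of H2-Ea have values between −0.157 and 0.202, and a group of 4 genes at 12 to 16 places on the left lies above 0.4.

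With the array set as a term, the genes most like H2-Ea over strains lay on other chromosomes. The 1 feature that passed was Pdia3, on chromosome 2, an endoplasmic reticulum disulfide isomerase (ERp57) of the class I peptide-loading complex. Pdia3 ranged from −0.48 in BXD36 over a median of 0.31 to 0.60 in BXD15 and was above 0 in 26 strains. Its slope on H2-Ea was 1.07 ± 0.165 (SE, n = 31; adjusted p = 0.00699, limma), with r = 0.806 after the set means were subtracted. Pooled over the sets r was 0.306 (permutation p = 0.0943) and rho 0.369 (permutation p = 0.0416). Within the sets r was 0.680 over the 16 arrays (permutation p = 0.0039), 0.537 over the 8 (exact permutation p = 0.172) and 0.940 over the 7 (exact permutation p = 0.0022), so the relation had the same sign in each set. Without BXD6 and BXD28 the slope was 0.97 and the call was lost (adjusted p = 0.355, limma), as it was without the 7 arrays (slope 0.91, adjusted p = 0.483). Pdia3 also did not pass without the array set term (slope 0.435, adjusted p = 0.273, limma) or on ranks of H2-Ea (adjusted p = 0.342, limma). With the first 3 components as terms it passed (slope 0.956, adjusted p = 0.0154, limma). Pooled over the sets, some genes of chromosome 17 had a larger absolute r with H2-Ea than Pdia3. Among them were H2-Pa (0.653) and Lsm2 (−0.647), chosen after their values were seen.

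The next 9 genes in the fit with the array set term did not pass. Their adjusted p-values were 0.0536 for Shmt1 and 0.0568 for the others (limma). Slopes on H2-Ea were 1.14 for Shmt1, a serine hydroxymethyltransferase, 1.32 for the cyclin-dependent kinase Cdk2, 1.32 for the mitotic kinase Bub1, 0.88 for Ugt8a, an enzyme of myelin galactolipid synthesis, and 0.76 for Ints2 of the Integrator complex. They were −1.82 for Gcdh, glutaryl-CoA dehydrogenase, −1.74 for Cpne1, a copine, −1.37 for the calcium pump Atp2b2 and −0.91 for the splicing helicase Snrnp200. None of these 10 genes lies on chromosome 17.

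The same held for the other 9 genes. For each, the 2 named genes with the largest absolute r, set means subtracted, over 31 strains were taken out of 15095. H2-Eb1 was closest to Rims1 (−0.737) and Rag2 (0.734), and its closest gene among the 10 was H2-K1 (−0.457), at rank 473. H2-DMb1 was closest to Zfp87 (0.812) and Ccl20 (0.810), and then H2-Aa at rank 575 (−0.499). H2-Aa was closest to 8430436N08Rik (−0.801) and Slc46a1 (−0.793), with H2-DMb1 at rank 471. For H2-Ab1, the beta partner of H2-Aa, these were 1700047G03Rik (0.711) and Gzma (0.708), with H2-D1 at rank 2760 (−0.297). The chains of a class II pair were thus not among each other's nearest genes. The 2 probes of H2-Aa itself had r = 0.344 on this measure, so these ranks say little about how alike partners are.

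Of the class I genes, H2-K1 was closest to Tmed11 (0.756) and Cyp3a13 (0.743), with H2-Aa at rank 287 (0.496), the highest rank of any of the 10 for another. H2-D1 was closest to Dus2 (0.843) and 5730420D15Rik (0.790), with H2-DMb1 at rank 2369. B2m was closest to Gabarap (0.720) and Sucla2 (0.703), with its partner H2-K1 at rank 1062 (0.394). Tap1 was closest to Psmd4 (−0.800) and Coa4 (−0.780), with H2-Aa at rank 3630. Cd74 was closest to Gjb1 (−0.720) and Cyb5r3 (0.703), with H2-Ea at rank 1363 (−0.317). None of these 18 genes lies on chromosome 17, and these likenesses are the extremes of a ranking over all genes, without a test.

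The rest of the antigen presentation pathway was mixed in direction. Of 11 class II genes measured of 11 listed, 4 had a positive and 5 a negative mean beyond the threshold, with a median of −0.04. In the lists that follow, higher and lower stand for such means on the reading of the ratio taken here. H2-Ea is among the 5, and no level of it is drawn from its sign. Those with the smallest adjusted p were H2-Eb1, H2-DMb1, H2-Ea and H2-Ab1. Of 16 class I genes measured of 23 listed, 8 were higher and 6 lower, with a median of 0.12. H2-M9 had a mean of −0.41 and H2-M2 one of −0.67, both non-classical heavy chains and both below 0 in all 31 strains. Fcgrt, the neonatal Fc receptor, had a mean of 0.45, and 0610037M15Rik, a RefSeq synonym of H2-Q6, was above 0 in all 31 strains, with a mean of 0.33. The 4 probes of H2-Q2 ranged from −0.41, at an eighth place, to 0.21. Over all features 76.1% passed, against 9 of 11 and 14 of 16 in these lists.

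Of 15 genes of antigen processing measured of 16 listed, 10 were higher and 3 lower, where 76.1% of all features passed. Psmb9 (−0.66), the lysosomal protease Ctss (−0.38), the proteasome activator Psme1 (0.39) and the lysosomal protease Ctsl (0.20) had the smallest adjusted p. The Psmb9 probe lay at an eighth place. Pdia3 was the 1 gene of this list that passed in the fit on H2-Ea. Of 10 regulators of MHC genes measured of 12 listed, 3 were higher and 5 lower, against that same share. Irf8, a transcription factor of myeloid cells, had a mean of −0.53 and was below 0 in all 31 strains, but its probe lay at an eighth place, as did that of Nfyc (−0.36). The other NF-Y subunits had −0.27 (Nfya) and 0.22 (Nfyb, also at an eighth place), so the 3 subunits did not share a direction; Nfyb was added after its value was seen. For Creb1 (−0.58) the 2 probes gave −1.11 and −0.05. Ciita, the class II transactivator, had a mean of −0.05 that did not pass (adjusted p = 0.130, limma), and 0 of the 10 regulators passed in the fit on H2-Ea.

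Cell type markers did not move in 1 direction either, except that the blood genes past the threshold were all lower. Of 10 microglial genes, 2 were higher and 4 lower, with Tyrobp at 0.59 and Cx3cr1 (−0.64) and P2ry12 (−0.67) at eighth places. C1qa, whose probe was not at an eighth place, had a mean of −0.94 and was below 0 in 29 strains. C1qb (−0.05) and C1qc (0.04) did not pass. The C1q genes were added after their values were seen. Of 9 genes of border macrophages and dendritic cells, 4 were higher and 3 lower, among them Ms4a7 at −0.44, below 0 in all 31 strains, Flt3 at 0.31 and Mrc1 (−0.71) at an eighth place. Of 9 B and T cell genes, 3 were higher and 3 lower. Cd79a (0.04) and Cd79b (0.06) did not pass and Ms4a1 was at −0.56. Of 4 blood genes, 0 were higher and 3 lower, and the haemoglobin gene Hba-a1 did not pass (mean 0.01, adjusted p = 0.887, limma). Of 10 endothelial genes, 7 were higher and 3 lower. Over all features 76.1% passed in this test, 42.1% positive and 33.9% negative. None of the 42 genes of these 5 lists passed in the fit on H2-Ea, in which 6 of them, and 9.64% of all features, had an unadjusted p under 0.05. The part of cell composition in the MHC values was not tested beyond these counts.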

How the data were processed

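The deposited table gave 1 log ratio, taken as log2, for each of 23040 spots on each of 31 arrays. The submitters' processing notes name R 2.0.0 and limma. Background correction and filters on spots were not given in the sources used here. The sorted values were identical in every column, which quantile normalisation between arrays gives, and it removes differences in the whole distribution between arrays. Probes with 1 symbol in the platform annotation (16874, against 134 with several and 6032 with none) were averaged by gene, which gave 15096 genes and 21262 features. Means and associations were tested with limma 3.58.1 in R 4.3.3 (two-sided, moderated, Benjamini-Hochberg adjusted over all features, 0.05), after the procedure was tested on simulated data. Correlations had two-sided permutation tests (100000 resamples, exact under 10 arrays; Python 3.11.15, scipy 1.17.1). The array set term was set from the first 2 principal components. The genes named besides the 10 were those with the largest moderated t on H2-Ea, the 2 most alike for each other gene, the 4 with the smallest adjusted p of each pathway list, the neighbours within 10 places and up to 3 of each cell type list. The 10 genes and the lists were chosen with earlier results of these data known. Promoter sequences came from RefSeq, GRCm38.p6, which held 7 of the 10 genes; other coordinates were not used.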

Additional observations from a re-analysis of the deposited data

How the results depend on the processing

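Of 52 alternative values of the 10 means, 43 kept their direction and their side of the threshold, 6 lost the threshold, 1 gained it (Cd74, −0.06 with array sets weighted equally, adjusted p = 0.0311) and 2 changed sign: H2-Aa to −0.0214 and Cd74 to 0.0030 without the 15 arrays apart on the first 2 components. Of the 10 genes, 5 had a positive mean past the threshold, and 3 did without those 15 arrays and 3 with each array centred on its median. The features that passed with H2-Ea were 1 in the fit reported, 886 without the array set term, 19 with the first 3 components as terms, and 0 without BXD6 and BXD28, 0 without the 7 arrays and 0 with ranks of H2-Ea. These had 1863, 1938 and 1638 features at an unadjusted p under 0.05 (limma). None of the other 9 genes passed in any of these fits. Slopes on H2-Ea changed sign as follows. Without the array set term they were 0.134 for H2-Aa, 0.136 for H2-Ab1, 0.202 for H2-K1 and −0.299 for H2-D1. Without BXD6 and BXD28 they were −0.0803 for H2-Eb1, 0.338 for H2-Aa, 0.0321 for H2-K1 and 0.164 for Tap1. Without the 7 arrays they were −0.0762 for H2-Eb1, 0.175 for H2-Aa, 0.0309 for H2-Ab1, −0.525 for B2m and 0.357 for Tap1. On ranks they were 0.00208 for H2-Aa, 2.1e-05 for H2-K1 and −0.000136 for B2m. The cause was not tested. No paired analysis was possible because there was 1 group, whose replicate numbers only name the strains. Probe brightness was not used here, so how far dim signal limits these values was not tested.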
